A study of Mus musculus with 24 samples.

Results

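The change in RNA between 84 h and 95 h of differentiation was described in mouse cells that lacked Flk1 on their surface (Flk1-). They came from embryoid bodies, the aggregates that embryonic stem cells form as they differentiate. The comparison takes the 4 arrays labelled Flk1- at 95 h and the 4 labelled Flk1- at 84 h, 8 of the 24 samples of the series, over all 17440 measured features. The other 16 samples were Flk1- cells of 8 d and Flk1+ cells of 84 h, 95 h and 8 d, 4 each, and they entered as a source of the common error and for a set of stated comparisons. The labels name no strain, cell line, treatment or transgene, and they do not say whether the samples of a group came from separate cultures, so that the spread behind the p-values is that between these samples and may be technical. The study's title names Wnt signalling and the commitment of stem cells to endothelium.

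Flk1, the product of Kdr, is a receptor for vascular endothelial growth factor (VEGF) and marks mesoderm that can give rise to endothelium, blood and heart. Cells of an early embryoid body without Flk1 are a mixture: epiblast-like cells that still carry pluripotency genes, cells passing through a primitive streak stage, endoderm, and mesoderm that has not switched the receptor on. In the mouse embryo, cells that leave the epiblast through the streak lose pluripotency genes and gain genes of migration, matrix and cytoskeleton.

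Each array set 1 sample, labelled with Cy5, against a Cy3-labelled reference of whole-pup RNA. Levels below are log2 ratios to that reference with the median of each array set to 0, and a level of one gene is not comparable with that of another. Sources used here give neither the log base nor the direction of the ratio. The values were read as log2 of Cy5 over Cy3, a reading under which Flk1+ cells had the higher Kdr level at 84 h, 95 h and 8 d. Correlations over all features between Flk1- arrays of 84 h were 0.952 to 0.966 among arrays 1 to 3 and 0.877 to 0.888 with array 4. At 95 h they were 0.898 between arrays 3 and 4, 0.793 to 0.807 between these and array 1, and 0.669 to 0.780 for array 2 with the others. Between the times they ran from 0.668 to 0.891, and those of 95 h array 2 with the 84 h arrays were 0.743, 0.739, 0.737 and 0.668. The Flk1+ arrays of 84 h formed 2 pairs, with 0.930 between arrays 1 and 3, 0.839 between arrays 2 and 4 and 0.590 to 0.689 between the pairs, which touches the comparison with Flk1+ cells. With 4 arrays a group, the number of arrays limits the precision.

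Kdr, the gene of the sort (chromosome 5, 75932827 to 75979072 in GRCm38.p6), was low at both times. Its levels were -0.87, -0.74, -1.00 and -1.08 on the 84 h arrays 1 to 4 and -1.30, -1.00, -1.02 and -1.00 on the 95 h arrays 1 to 4. The groups overlapped, and array 1 of 95 h was the lowest. The difference was -0.16 (SE 0.23, limma adjusted p = 0.839). In Flk1+ cells the means were 0.98 ± 0.79 (SD, n = 4) at 84 h and 1.85 ± 0.11 at 95 h, and each of these arrays lay above every Flk1- array. Arrays 2 and 4 of Flk1+ cells at 84 h had the lower levels, 0.036 and 0.67, against 1.80 and 1.43 on arrays 1 and 3.

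Of the 17440 features, 286 (1.64%) were called between the times, that is, passed an adjusted p of 0.05 in limma. Higher at 95 h were 184 (1.06% of all features), and 102 (0.585%) were lower. These shares are the background for the list counts below, in which a gene can belong to several lists. At an unadjusted p under 0.05 were 2517 of the 17440, and with array weights 2156 were called. These 2 counts are the background where list counts of those kinds are given. Gene names belonged to 174 of the called features. Sizes of the called differences ran from 0.33 to 2.11 with a median of 0.71, and 47 exceeded 1, so that most called features moved by less than 1 on the log2 scale. For 265 of the 286 the 4 arrays of one time did not overlap those of the other, as against 1741 of all features (9.98%). The calls were made on these same arrays, so the lack of overlap follows largely from the call and is no separate support. In RNA of a whole sorted fraction, fewer cells of a type and less RNA per cell cannot be told apart.

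The count depended on the arrays and the error estimate. From only the 8 arrays compared it was 70, and without 84 h array 4 and 95 h arrays 1 and 2, a set chosen after the correlations were seen, it was 55. Leaving out single Flk1- arrays gave 93 without 84 h array 3, 105 without array 2, 149 without array 1, 182 without array 4, 136 without 95 h array 2 and 449 without 95 h array 1. The calls of single genes were therefore counted over 18 alternative settings. Of the 52 called genes that the naming rule gave, 19 stayed called in 15 to 18 settings, among them Acta2, Hspb1, Abca1 and Samsn1 in all 18, and 17 in 10 to 14. The other 16 were called in fewer than 10 and are the weakest calls below: Gsc in 2, Cd34 and Wnt5a in 6, Col6a1, Dlk1, Mcm3, Msc and Ndufa10 in 7, Ero1a, Ier2, Nr2e1, Perp, Sars and Sox17 in 8, and Ednrb and Peg3 in 9. All settings but the 8 arrays alone took the error from other groups as well, so they are not independent of each other. From only those 8 arrays 14 of the 52 stayed called, and without 84 h array 4 and 95 h arrays 1 and 2, 10 did. Gata3, Map2 and Nrp1, called in 17 settings, were not called from those 8, while Abca5, Col9a3, Lrp1 and Postn, also in 17, were. None of the 52 turned direction when any 1 Flk1- array was left out.

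**Figure D1:**
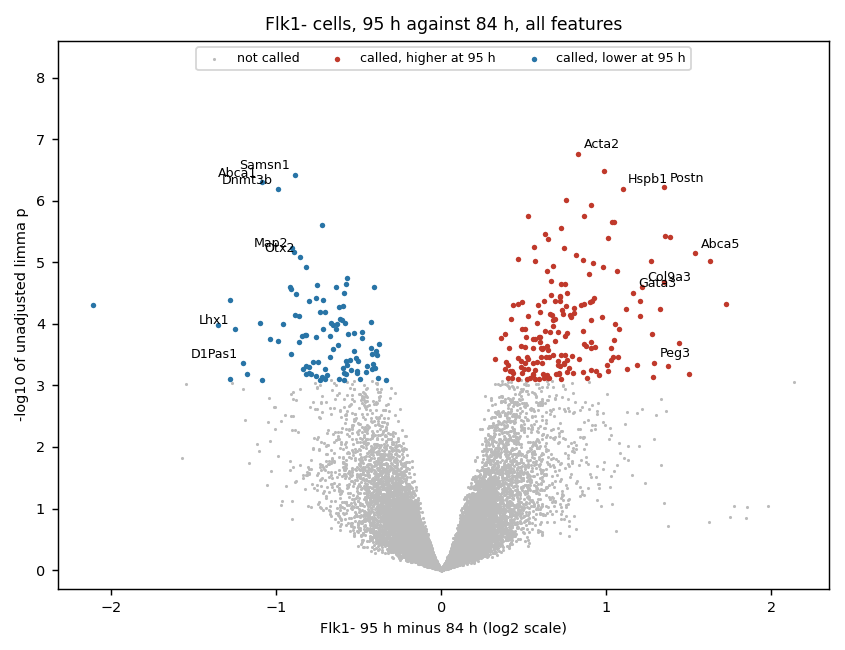
Difference of each of the 17440 features between Flk1- cells at 95 h and 84 h (x axis, log2 scale) against its unadjusted limma p (y axis, −log10). Red points are the 184 features called higher, blue points the 102 called lower, and Acta2 had the smallest p of all.

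Acta2, Postn and Vim were the called rises among the smooth muscle and fibroblast genes. Acta2, smooth muscle alpha-actin (chromosome 19, 34240336 to 34255585), had levels of -3.21, -3.07, -3.03 and -2.94 at 84 h and of -2.31, -2.33, -2.15 and -2.14 at 95 h. Every 95 h array lay above every 84 h array, and the spread within each time was small. Acta2 rose by 0.83 (SE 0.11, 1.78-fold, adjusted p = 0.00162) and stayed between 0.78 and 0.87 when any 1 Flk1- array was left out. Actin genes are close in sequence, and whether the probe also binds related actins was not tested.

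Postn, the secreted matrix protein periostin, was at -6.23, -6.51, -6.19 and -6.10 at 84 h and at -4.82, -4.45, -5.17 and -5.19 at 95 h. These lay at the bottom of the scale, whose deposited values ran from -6.42 to 5.33, and the 95 h arrays did not reach down to the 84 h arrays. Postn rose by 1.35 (SE 0.19, adjusted p = 0.00162), and quantile normalization brought the difference to 0.17 (adjusted p = 0.653). Vim, the intermediate filament vimentin, rose by 0.69 (SE 0.15, adjusted p = 0.0224, called in 10 of 18 settings), with its 4 probes between 0.49 and 0.97. Of 16 measured smooth muscle and fibroblast genes, 3 were higher, 0 lower and 13 not called, with a median of 0.39 against 0.0082 over all features. Of all features, 1.06% were called higher. Among members not called were fibronectin, Fn1, at 0.45 (adjusted p = 0.126), and the collagen gene Col1a1 at -0.03. Without 84 h array 4 and 95 h arrays 1 and 2, Postn and Acta2 were still called, 2 of the 3.

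Some further called rises encode proteins of the actin cytoskeleton. They were picked after their values were seen because they rose, no list of actin-binding genes was counted, and they do not show that such genes rose as a group. Shroom3, an actin regulator of epithelial shape, was called lower, at -0.71 (SE 0.17, adjusted p = 0.0413, with 95 h array 3 inside the 84 h range). The rises were Zyx at 0.76 (SE 0.15), zyxin of focal adhesions, Cnn2 at 0.71 (SE 0.18), a calponin, Csrp1 at 0.64 (SE 0.15), a LIM protein, Filip1l at 0.59 (SE 0.12), Gsn at 0.75 (SE 0.18), gelsolin, and Nexn at 0.80 (SE 0.19), nexilin. The second smooth muscle actin gene Actg2 rose by 0.60 (SE 0.14), and the LIM-only genes Fhl1 and Fhl2 rose by 0.60 (SE 0.14) and 0.61 (SE 0.15). The calcium-binding S100a6 rose by 0.93 (SE 0.18, adjusted p = 0.011) and its partner Anxa2, annexin A2, by 0.72 (SE 0.18). Arrays of the times overlapped for Cnn2, with 95 h array 1 at the level of the 84 h arrays, and for Csrp1, with 95 h array 2 there. S100a6 stayed called in 16 of 18 settings, Zyx and Filip1l in 14 and Fhl1 in 11, while Actg2, Csrp1, Fhl2, Gsn and Shroom3 did so in 9, Anxa2 in 8, and Cnn2 and Nexn in 7.

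Serum response factor, a regulator of actin and muscle genes, binds the CArG box, and promoter windows of the called genes were searched for it with these calls known. The windows, from RefSeq on GRCm38.p6, reach from 250 bases before to 50 after a gene's start, and since the motif reads the same on the other strand, 1 search covers both. A match was found in 535 of all 32851 windows (1.63%), in 118 of the 7250 measured genes with a window (1.63%), in 4 of 91 genes called higher (4.40%) and in 1 of 48 called lower (2.08%). These shares rest on few genes, and their difference was not tested. The genes with a match were Cnn2, Fhl1, Fhl2 and Filip1l among the rises and Lama2, a laminin chain that fell by 0.72, among the falls. The matches began 56 bases before the start in Cnn2, 102 in Fhl1, 31 in Fhl2, 62 in Filip1l and 39 in Lama2. Fhl2 had a match in a second window as well, 96 bases before the start. No match to these exact letters lay in the windows of Acta2, Vim, Postn, Zyx, Csrp1 or Gsn. The 5 windows are shown because they carry the motif beside a measured change, with the motif in capitals.
Cnn2, chr10:79988350-79988649, plus strand: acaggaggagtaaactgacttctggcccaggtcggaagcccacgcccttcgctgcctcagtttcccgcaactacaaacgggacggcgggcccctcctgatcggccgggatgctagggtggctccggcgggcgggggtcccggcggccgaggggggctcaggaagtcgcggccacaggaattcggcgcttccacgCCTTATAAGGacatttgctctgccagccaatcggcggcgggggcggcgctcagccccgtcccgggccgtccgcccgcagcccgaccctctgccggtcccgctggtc
Fhl1, chrX:56779433-56779732, plus strand: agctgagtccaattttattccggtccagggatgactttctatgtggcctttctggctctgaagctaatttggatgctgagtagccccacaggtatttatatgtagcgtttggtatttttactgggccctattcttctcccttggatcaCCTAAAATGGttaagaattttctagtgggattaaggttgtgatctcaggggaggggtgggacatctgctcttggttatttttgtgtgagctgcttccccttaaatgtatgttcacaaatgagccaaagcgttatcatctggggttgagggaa
Fhl2, chr1:43163912-43164211, minus strand: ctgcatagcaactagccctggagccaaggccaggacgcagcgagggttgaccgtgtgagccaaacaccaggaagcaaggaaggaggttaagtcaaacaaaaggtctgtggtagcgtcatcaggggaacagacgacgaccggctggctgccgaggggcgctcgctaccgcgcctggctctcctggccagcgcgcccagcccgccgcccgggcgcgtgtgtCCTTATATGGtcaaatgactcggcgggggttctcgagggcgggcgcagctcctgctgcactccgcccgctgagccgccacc
Filip1l, chr16:57548992-57549291, plus strand: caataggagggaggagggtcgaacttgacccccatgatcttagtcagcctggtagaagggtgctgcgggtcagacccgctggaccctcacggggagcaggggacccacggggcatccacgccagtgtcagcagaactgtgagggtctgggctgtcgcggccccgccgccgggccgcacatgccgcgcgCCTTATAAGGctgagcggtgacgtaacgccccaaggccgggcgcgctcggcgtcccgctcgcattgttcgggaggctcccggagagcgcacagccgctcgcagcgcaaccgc
Lama2, chr10:27616893-27617192, minus strand: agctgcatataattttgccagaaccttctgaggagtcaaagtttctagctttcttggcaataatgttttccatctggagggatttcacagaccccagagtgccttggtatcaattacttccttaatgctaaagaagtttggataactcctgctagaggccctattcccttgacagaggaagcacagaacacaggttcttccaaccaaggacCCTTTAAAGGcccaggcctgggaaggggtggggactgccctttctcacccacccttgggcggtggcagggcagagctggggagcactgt

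Several genes of the extracellular matrix were highest on arrays 1 and 2 of 95 h. Nid1, the basement membrane protein nidogen, was at -2.83, -2.45, -2.71 and -2.48 at 84 h and at -0.71, -1.17, -2.30 and -2.11 at 95 h. Arrays 1 and 2 of 95 h stood well above the rest, while arrays 3 and 4 were just above the 84 h arrays. Nid1 rose by 1.05 (SE 0.23, adjusted p = 0.0218), and without 84 h array 4 and 95 h arrays 1 and 2 the difference was 0.46 (adjusted p = 0.281). Sparc, a matrix glycoprotein of basement membranes, had 95 h levels of -0.87, -1.07, -2.36 and -2.62 against -2.59, -2.44, -2.45 and -2.80 at 84 h. Col4a1, a chain of collagen IV, had -0.14, -0.08, -1.44 and -1.92 against -1.78, -1.24, -1.91 and -1.81. Both showed the same 2 high arrays, the groups overlapped, and neither difference was called (0.84 with adjusted p = 0.137, and 0.79 with adjusted p = 0.222).

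The other called matrix genes, beside Postn, were Timp2 and Col6a1. Timp2, an inhibitor of matrix metalloproteinases chosen after its value was seen, rose by 0.47 (SE 0.08, adjusted p = 0.00525, called in 16 of 18 settings), with 3 probes between 0.44 and 0.50. Col6a1, a chain of collagen VI, rose by 0.50 (SE 0.12, adjusted p = 0.0416, called in 7 of 18 settings). Outside the matrix list, Col9a3, a chain of collagen IX known from cartilage, was at -1.45, -1.42, -1.40 and -1.34 at 84 h and at 0.35, -0.18, -0.51 and -0.40 at 95 h. The groups were far apart, with arrays 1 and 2 again the highest, and the rise was 1.22 (SE 0.23, adjusted p = 0.00883, called in 17 of 18 settings). Of 39 measured genes of matrix and basement membrane 4 were higher, 0 lower and 35 not called, where 1.06% of all features were called higher. From only the 8 arrays compared 1 was called, and without 84 h array 4 and 95 h arrays 1 and 2 also 1. Their median was 0.24, and 33 of the 39 differences were above 0, against 8978 of all 17440 features.

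**Figure D2:**
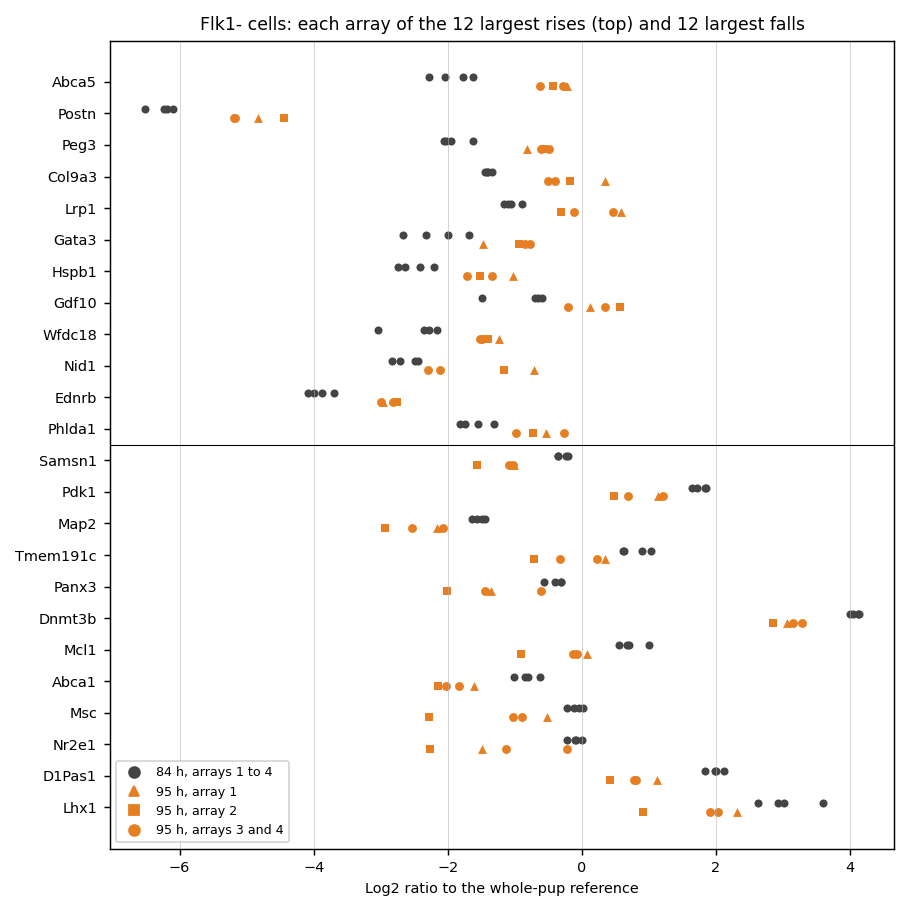
Log2 ratio to the whole-pup reference (x axis) on each Flk1- array for the 12 largest called rises and 12 largest called falls without overlap (y axis, 1 gene a line). Black points are the 84 h arrays and orange symbols the 95 h arrays, and 95 h array 2 (square) is the lowest point in each of the 12 falls while arrays 1 and 2 alone are high for Nid1.

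Of 20 measured genes of the insulin-like growth factor (IGF) axis and of imprinted genes limma called 3 higher and 0 lower, with 17 not called and a median of 0.38. Over all features 1.06% were called higher, and the median was 0.0082. Peg3, an imprinted zinc finger gene expressed from the paternal copy, was at -1.62, -2.06, -1.95 and -2.03 at 84 h and at -0.82, -0.57, -0.62 and -0.49 at 95 h. No array of one time came near the other time, and its 2 probes gave 1.25 and 1.33. Peg3 rose by 1.29 (SE 0.31, adjusted p = 0.0367), a call that held in 9 of 18 settings. Igfbp4, an IGF-binding protein, rose by 0.85 (SE 0.17, adjusted p = 0.0113) and Dlk1, an imprinted transmembrane protein related to Notch ligands, by 0.74 (SE 0.18, adjusted p = 0.0373, called in 7 of 18 settings). Plagl1, an imprinted zinc finger gene, differed by 0.84 (adjusted p = 0.119), and Igf2, the imprinted growth factor, by 0.50 (adjusted p = 0.119). From only the 8 arrays compared 2 of the 20 were called, and without 84 h array 4 and 95 h arrays 1 and 2 none was.

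Among ligands and receptors, the rises were single genes of different families. Gdf10, a secreted member of the TGF-beta superfamily, was at -0.59, -0.66, -0.69 and -1.49 at 84 h and at 0.12, 0.58, -0.20 and 0.34 at 95 h. Array 4 of 84 h stood below the other 3, and the groups did not overlap. Gdf10 rose by 1.07 (SE 0.19, adjusted p = 0.00639), and by 0.85 when that array was left out. Fgf10, a fibroblast growth factor of mesenchyme, rose by 0.91 (SE 0.19, adjusted p = 0.0146). Its 84 h levels were -0.11, -0.22, 0.01 and 0.32 and its 95 h levels 0.55, 0.99, 1.20 and 0.89, without overlap.

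Wnt5a, a Wnt ligand of the non-canonical branch, was at -1.33, -1.50, -1.54 and -1.15 at 84 h and at -0.13, -0.52, -0.99 and -0.68 at 95 h. It rose by 0.80 (SE 0.20, adjusted p = 0.044), a call kept in 6 of 18 settings. It was the 1 called gene of 26 measured in the Wnt list, whose median was 0.11, where 1.06% of all features were called higher. Other members were not called, among them the ligand gene Wnt2 at 0.53, the Wnt inhibitor gene Dkk1 at 0.57 (adjusted p = 0.101), the receptor gene Fzd7 at 0.51 and Ctnnb1, beta-catenin, at 0.45. Axin1 at 0.08 and Lef1 at 0.14, both of the canonical pathway, lay near 0.

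Ednrb, the endothelin receptor B, rose by 1.03 (SE 0.24, adjusted p = 0.0346), from levels between -4.09 and -3.69 to levels between -2.99 and -2.76. Nrp1, the VEGF and semaphorin coreceptor neuropilin, rose by 0.65 (SE 0.11, adjusted p = 0.00365, called in 17 of 18 settings), with 3 probes from 0.28 to 1.19. Lrp1, a large endocytic receptor, averaged 1.21 (SE 0.24, adjusted p = 0.011), but its 2 probes disagreed at -0.14 and 2.56, so its call rests on 1 of them. Fgf10 was the 1 called gene of 21 in the FGF, VEGF and PDGF list (median 0.11), where 1.06% of all features were called higher. Over all 17440 features, 2517 had an unadjusted p under 0.05 and 2156 were called with array weights. Of 35 Nodal, BMP and TGF-beta genes 0 were called by limma, with 10 at an unadjusted p under 0.05 and 10 called with array weights. The Nodal antagonist genes Lefty1 at -0.58 (adjusted p = 0.0889) and Lefty2 at -0.77 (adjusted p = 0.143), the coreceptor gene Tdgf1 at -0.57 and the signalling repressor gene Skil at -0.71 were at the low end of that list, with no overlap between times, and none was called. Of 18 Notch genes 0 were called, with 2 at an unadjusted p under 0.05 and 2 called with array weights. Of 8 retinoic acid genes 0 were called, with 1 at an unadjusted p under 0.05 and 3 called with array weights.

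Transcription factors of mesoderm gave a mixed picture. Gata3, a zinc finger factor of early mesoderm and trophoblast, was at -1.99, -2.67, -2.32 and -1.69 at 84 h and at -1.47, -0.94, -0.84 and -0.78 at 95 h. The times did not overlap, although 95 h array 1 came close to 84 h array 4. Gata3 rose by 1.16 (SE 0.22, 2.24-fold, adjusted p = 0.0102, called in 17 of 18 settings). Snai1, the repressor of E-cadherin that acts in cells leaving the epiblast, was at 0.16, -0.07, 0.08 and 0.74 at 84 h and at 1.48, 1.04, 0.75 and 0.99 at 95 h. Arrays of the times met at 0.74 and 0.75, and the rise of 0.83 (SE 0.20, adjusted p = 0.0345) was called in 10 of 18 settings. Cdh1, E-cadherin itself, differed by -0.19 (SE 0.34, adjusted p = 0.876), with 84 h array 4 at -0.10 while arrays 1 to 3 lay at 1.45, 1.83 and 1.73.

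Prdm6, a transcriptional repressor of smooth muscle, was at -0.08, -0.78, -0.17 and 1.03 at 84 h and at 1.44, 0.79, 1.48 and 0.81 at 95 h. Array 4 of 84 h overlapped the 95 h arrays, and the rise was 1.13 (SE 0.28, adjusted p = 0.0416). It was the 1 called gene of 16 in the lateral plate and extraembryonic mesoderm list, whose median was 0.27 with 14 of the 16 above 0. Over all features 1.06% were called higher, and 8978 of 17440 were above 0. The homeobox gene Msx2 at 0.65 (adjusted p = 0.0699) and the helix-loop-helix gene Hand1 at 0.28 (adjusted p = 0.646) were not called. Meis2, a homeobox gene chosen after its value was seen, rose by 0.68 (SE 0.14, adjusted p = 0.0164).

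In the list of primitive streak and nascent mesoderm, 1 of 12 measured genes was higher, 2 were lower and 9 were not called, with a median of 0.067. The one higher was Snai1, and the lower ones, Lhx1 and Gsc, were organizer genes. The T-box gene Eomes (0.46, adjusted p = 0.128) and the early mesoderm gene Mesp1 (0.46, adjusted p = 0.473) were not called. Mesp1 levels of 3.09, 1.89, 2.44 and 3.59 at 84 h overlapped those of 2.73, 3.36, 3.21 and 3.56 at 95 h. The 17 genes of mesenchymal transition had 2 higher, Snai1 and Vim, and 0 lower, with a median of 0.14. As background for this list and the streak list, 1.06% of all features were called higher and 0.585% lower. Of 2 measured paraxial mesoderm genes, Mesp2 at 0.39 (adjusted p = 0.0528) and Hoxb1 at 0.61 (adjusted p = 0.0729), limma called 0, both had an unadjusted p under 0.05, and both were called with array weights. Hoxb1 was also the highest of 10 Hox and Cdx genes, 0 of them called, with 1 at an unadjusted p under 0.05 and 1 with array weights. Over all 17440 features the latter 2 counts were 2517 and 2156.

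Of 19 measured endoderm genes Sox17 and Cldn6 were called higher and 0 lower, with a median of 0.29. Sox17, a factor of endoderm and of endothelium, was at 0.33, 0.24, 0.52 and 1.17 at 84 h and at 1.38, 1.85, 1.10 and 1.37 at 95 h. Array 4 of 84 h reached above the lowest 95 h array, and the rise was 0.86 (SE 0.21, adjusted p = 0.0439, called in 8 of 18 settings). Cldn6, a tight junction claudin of early epithelia, rose by 0.68 (SE 0.16, adjusted p = 0.0319), with 95 h arrays 1 and 2 the highest at 2.18 and 1.74. The endoderm member Foxa2, a forkhead factor of endoderm and node, lay on the other side at -0.72 (adjusted p = 0.067). Of 23 epithelial junction and keratin genes 1, Cldn6, was higher and 0 were lower, with a median of 0.0096. Both lists had 0 calls from only the 8 arrays compared and 0 without 84 h array 4 and 95 h arrays 1 and 2, and over all features 1.06% were called higher. The keratin genes Krt19 at 0.81 (adjusted p = 0.0865) and Krt18 at 0.60 (adjusted p = 0.344) and the adhesion gene Epcam at 0.28 (adjusted p = 0.738) were not called.

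Of 16 endothelial and 19 cardiac contractile genes, 3 and 2 were called higher, where 1.06% of all features were. The median of all features was 0.0082. Beside Sox17 and Nrp1, the surface glycoprotein gene Cd34 rose by 0.49 (SE 0.12, adjusted p = 0.044, called in 6 of 18 settings), from levels between -2.37 and -2.31 to levels between -2.11 and -1.62. The 16 endothelial genes thus had 3 higher, 0 lower and 13 not called, with a median of 0.22 and 11 of the 16 above 0. Clec14a at -0.54, Nos3 at -0.27 and Ets1 at -0.21 lay lower at 95 h without overlap and were not called. With array weights 4 of the 16 were called higher and 2 lower. From only the 8 arrays compared 0 of the 16 were called, and without 84 h array 4 and 95 h arrays 1 and 2 Nrp1 alone was. Cdh5, the endothelial cadherin, differed by 0.45 (adjusted p = 0.147) at levels from -3.61 to -2.68. Of 11 blood genes 0 were called by limma, with 2 at an unadjusted p under 0.05 and 1 called with array weights, and the median was -0.11. Over all 17440 features the latter 2 counts were 2517 and 2156. Tnnt2, cardiac troponin T, was at -3.34, -3.32, -3.31 and -3.27 at 84 h and at -2.50, -2.42, -2.68 and -2.77 at 95 h. It rose by 0.72 (SE 0.14, 1.65-fold, adjusted p = 0.0108, called in 16 of 18 settings), with its 2 probes at 0.53 and 0.91. Tnni3, cardiac troponin I, rose by 0.51 (SE 0.11, adjusted p = 0.0206). The median of the cardiac list was 0.19, with 13 of the 19 above 0. Actc1 at -0.46 lay lower at 95 h without overlap and was not called. With array weights 3 of the 19 were called higher and 1 lower. From only the 8 arrays compared Tnnt2 alone stayed called, and without 84 h array 4 and 95 h arrays 1 and 2 neither did.

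**Figure D3:**
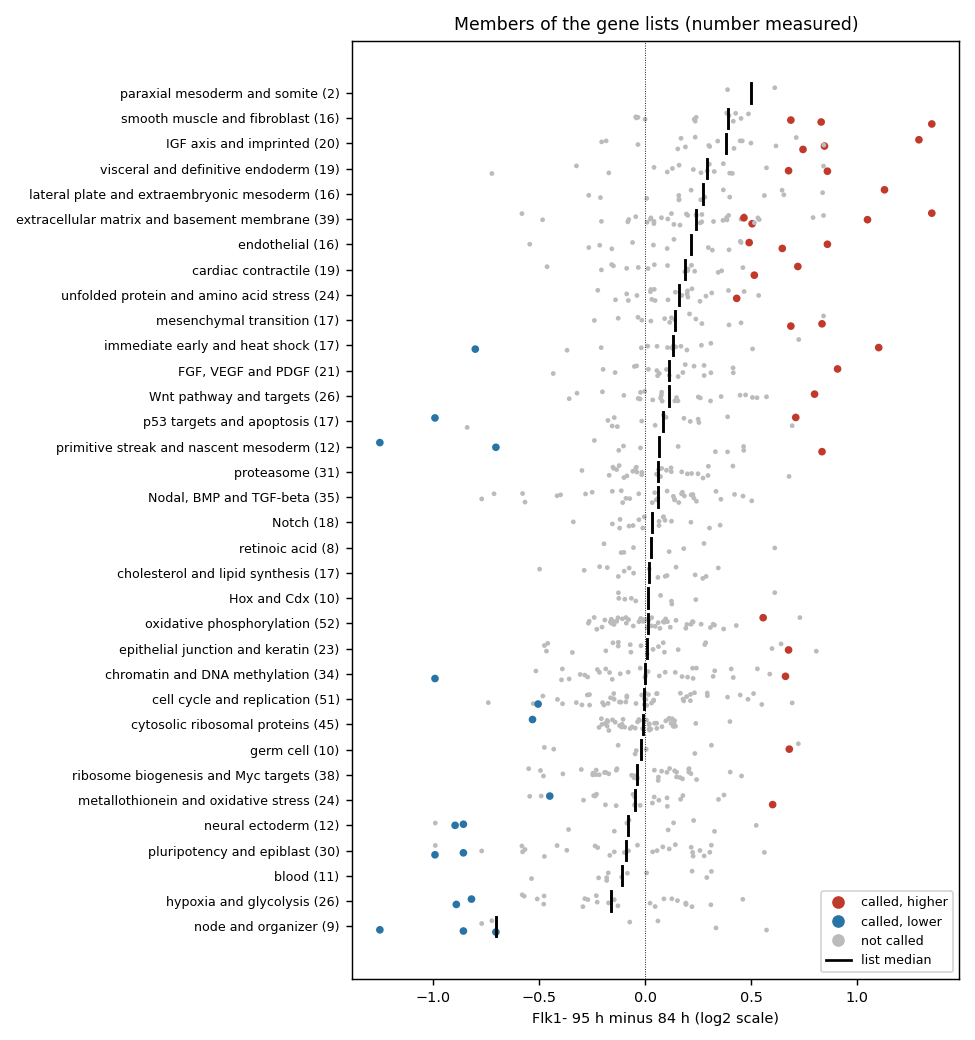
Difference between 95 h and 84 h in Flk1- cells (x axis, log2 scale) for each measured member of the 34 gene lists (y axis, number measured in brackets), ordered by the list median (black bar). Red points are members called higher and blue points members called lower, and node and organizer genes have the lowest median at -0.70.

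Among the 102 falls were genes of the node, organizer and epiblast. Of the 12 largest named falls without overlap, Lhx1 and Dnmt3b belong to these lists, and D1Pas1, Nr2e1, Msc, Abca1, Mcl1, Panx3, Tmem191c, Map2, Pdk1 and Samsn1 do not. Array 2 of 95 h, which stood apart, gave the lowest level of its group in each of the 12 largest falls. Without this array the sizes of all 12 falls ran from 0.71 to 1.08, and 4 of the 12 were called. Of the 12 largest rises 9 were called without that array. Lhx1, a LIM homeobox factor of the organizer and anterior mesendoderm, was at 3.01, 2.63, 2.93 and 3.60 at 84 h and at 2.31, 0.91, 2.03 and 1.91 at 95 h. The times did not overlap, and 95 h array 2 was the lowest. Lhx1 fell by 1.25 (SE 0.27, 2.38-fold, adjusted p = 0.0178), and by 0.96 without that array. Otx2, a homeobox factor of epiblast and anterior tissues, was at 2.84, 3.11, 3.11 and 3.28 at 84 h and at 2.27, 1.87, 2.38 and 2.40 at 95 h, without overlap. It fell by 0.86 (SE 0.15, 1.81-fold, adjusted p = 0.00525, called in 15 of 18 settings).

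Gsc, the organizer homeobox gene goosecoid, was at 3.33, 2.99, 3.22 and 3.51 at 84 h and at 2.17, 2.82, 2.49 and 2.77 at 95 h. Its fall of 0.70 (SE 0.18, adjusted p = 0.049) was called in 2 of 18 settings. Of 9 measured node and organizer genes 3 (Lhx1, Otx2 and Gsc) were lower, 0 higher and 6 not called. The list median was -0.70, the value of Gsc, against 0.0082 over all features, of which 0.585% were called lower. Differences above 0 were found for 3 of the 9, among them Dkk1 at 0.57 (adjusted p = 0.101), without overlap between times. None of Lhx1, Otx2 and Gsc stayed called from only the 8 arrays compared, and none without 84 h array 4 and 95 h arrays 1 and 2, where the list median was -0.38. Levels of Lhx1, Otx2 and Gsc remained well above 0 at 95 h, that is, above the whole-pup reference.

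Dnmt3b, the de novo DNA methyltransferase of epiblast (chromosome 2, 153649411 to 153687730), had the most even fall. It was at 4.12, 4.04, 4.00 and 4.13 at 84 h and at 3.06, 2.85, 3.14 and 3.28 at 95 h. The spread within each time was small beside the gap between them. Dnmt3b fell by 0.99 (SE 0.14, 1.99-fold, adjusted p = 0.00162, called in 15 of 18 settings), with its 2 probes at -1.28 and -0.70. Dnmt3b and Otx2 were the 2 called of 30 pluripotency and epiblast genes, where 0.585% of all features were called lower. The list median was -0.088. Dnmt3b alone stayed called from only the 8 arrays compared, and without 84 h array 4 and 95 h arrays 1 and 2 neither did. Sox2, a pluripotency and neural factor, differed by -0.99 (SE 0.37, adjusted p = 0.194), with 84 h array 4 at 1.94 below arrays 1 to 3 at 2.77 to 3.08, and 95 h array 2 at 0.84. Nanog at -0.17 (adjusted p = 0.697) and the epiblast growth factor gene Fgf5 at 0.28 (adjusted p = 0.55) were not called. Of the 34 chromatin genes, Dnmt3b was lower and Cbx2, a Polycomb subunit, was 0.66 higher (SE 0.13, adjusted p = 0.0134). Over all features 1.06% were called higher. The related methyltransferase gene Dnmt3a was at 0.33 and not called.

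Of 12 measured neural ectoderm genes, Map2 and Otx2 were lower and 0 higher, where 0.585% of all features were called lower. The list median was -0.081, and Otx2 is counted in the organizer and pluripotency lists as well. Map2, a microtubule protein of neurons, was at -1.49, -1.45, -1.56 and -1.64 at 84 h and at -2.17, -2.94, -2.54 and -2.07 at 95 h. It fell by 0.90 (SE 0.15, adjusted p = 0.00493, called in 17 of 18 settings). Of the 12, 0 were called from only the 8 arrays compared, and without 84 h array 4 and 95 h arrays 1 and 2 Map2 alone was. Nr2e1, a nuclear receptor of the forebrain outside that list, was between -0.22 and 0.00 at 84 h and at -1.50, -2.26, -1.13 and -0.22 at 95 h. Array 4 of 95 h lay at the edge of the 84 h arrays, and the fall of 1.18 (SE 0.30, adjusted p = 0.0448) was called in 8 of 18 settings.

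Several falls belonged to no list. Abca1, the cholesterol efflux transporter, was at -0.85, -0.81, -1.01 and -0.62 at 84 h and at -1.61, -2.15, -2.03 and -1.83 at 95 h, without overlap. It fell by 1.09 (SE 0.15, 2.12-fold, adjusted p = 0.00162). Abca5, a lipid transporter of the same ABC family, went the other way and was the largest named rise. It was at -2.05, -2.28, -1.77 and -1.62 at 84 h and at -0.22, -0.43, -0.62 and -0.29 at 95 h, a rise of 1.54 (SE 0.26, 2.91-fold, adjusted p = 0.00498, called in 17 of 18 settings). Samsn1, an adaptor protein known from lymphocytes, fell by 0.89 (SE 0.12, adjusted p = 0.00162). D1Pas1, a DEAD-box helicase gene close in sequence to Ddx3x, fell by 1.20 (SE 0.29, adjusted p = 0.0367), and which of these genes its probe reads was not tested. Msc, a helix-loop-helix repressor, at -1.09, Panx3, a pannexin channel gene, at -0.96 and Tmem191c, a transmembrane protein gene, at -0.91 were also called lower. In each of these last 3, 95 h array 2 gave the lowest level.

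Of the genes of oxygen response and glycolysis, Pdk1 and Ero1a fell. Pdk1, the kinase that restrains pyruvate dehydrogenase, was at 1.65, 1.85, 1.72 and 1.84 at 84 h and at 1.13, 0.48, 1.21 and 0.68 at 95 h. It fell by 0.89 (SE 0.18, 1.85-fold, adjusted p = 0.0136, called in 14 of 18 settings). Ero1a, an oxidase of the endoplasmic reticulum, was between 1.70 and 1.83 at 84 h and at 1.43, 0.34, 1.42 and 0.53 at 95 h. Arrays 2 and 4 of 95 h were the low ones for both genes. Ero1a fell by 0.82 (SE 0.21, adjusted p = 0.0444). Of 26 members 2 were lower, 0 higher and 24 not called, with a median of -0.16, where 0.585% of all features were called lower. From only the 8 arrays compared 0 were called, and without 84 h array 4 and 95 h arrays 1 and 2 also 0. Ddit4, a stress-induced inhibitor of mTOR, at -0.58 (adjusted p = 0.225), the hexokinase gene Hk1 at -0.57 (adjusted p = 0.183) and the glycolytic gene Pgk1 at 0.13 (adjusted p = 0.895) were not called.

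Stress and survival genes were called singly, where 1.64% of all features were called in either direction. Hspb1, a small heat shock protein that binds actin, was at -2.42, -2.63, -2.74 and -2.21 at 84 h and at -1.03, -1.51, -1.71 and -1.34 at 95 h. Hspb1 rose by 1.10 (SE 0.16, 2.14-fold, adjusted p = 0.00162). Ier2, an immediate early gene, fell by 0.80 (SE 0.20, adjusted p = 0.044), and these were the 2 called of 17 immediate early and heat shock genes, with a median of 0.13. Mcl1, which protects from apoptosis, fell by 0.99 (SE 0.22, adjusted p = 0.0224), with 95 h array 2 the lowest at -0.90. Perp, a p53 target of cell junctions, rose by 0.71 (SE 0.17, adjusted p = 0.0381), with 95 h array 1 inside the 84 h range. With Mcl1 it made the 2 called of 17 p53 and apoptosis genes, whose median was 0.086. Phlda1, a pleckstrin-like gene, rose by 0.98 (SE 0.20, adjusted p = 0.0138), and Wfdc18, a secreted WAP-domain protein, by 1.05 (SE 0.16, adjusted p = 0.00293).

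Of 24 genes of the unfolded protein and amino acid response, Sars, a seryl-tRNA synthetase, was higher by 0.43 (SE 0.11, adjusted p = 0.0427), with probes at 0.03 and 0.83, and the median was 0.16. As background for the lists of this paragraph, 1.64% of all features were called in either direction. Of 24 metallothionein and oxidative stress genes, Gpx3, a glutathione peroxidase, rose by 0.60 (SE 0.13, adjusted p = 0.0205) and Gclm, of glutathione synthesis, fell by 0.45 (SE 0.11, adjusted p = 0.0391), with a median of -0.048. Ifitm3, an interferon-induced membrane protein also known from early germ cells, rose by 0.68 (SE 0.12, adjusted p = 0.00574) as the 1 called of 10 germ cell genes, whose median was -0.018. Selenop, the selenium carrier protein chosen after its value was seen, rose by 0.92 (SE 0.16, adjusted p = 0.00547).

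Large housekeeping groups had medians close to that of all features. Mcm3, of the replicative helicase, fell by 0.50 (SE 0.12, adjusted p = 0.0352) as the 1 called of 51 cell cycle genes, whose median was -0.0040. Over all features 1.64% were called. The 51 differences ran from -0.74 to 0.69, and 13 had an unadjusted p under 0.05, against 2517 of all 17440. With array weights 7 of the 51 were called higher and 5 lower, and 2156 of all features were called. The cell cycle inhibitor gene Cdkn1a was at 0.69 (adjusted p = 0.0659). Rpl37a fell by 0.53 (SE 0.11, adjusted p = 0.0194) as the 1 called of 45 ribosomal protein genes, with a median of -0.012. Ndufa10, of respiratory complex I, rose by 0.56 (SE 0.14, adjusted p = 0.0444) as the 1 called of 52 oxidative phosphorylation genes, with a median of 0.012. By limma 0 were called of 38 ribosome biogenesis genes (5 at an unadjusted p under 0.05, 2 with array weights), of 17 cholesterol and lipid genes (3 and 1) and of 31 proteasome genes (2 and 4).

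The same time step in Flk1+ cells shares no array with the one in Flk1- cells. Of the 286 features called in Flk1- cells, 267 (93.4%) had the same sign in Flk1+ cells, against 62.7% of all features. Called with the same sign in Flk1+ cells were 147 of the 286 (51.4%), against 2844 of all features (16.3%). In either direction, 3451 of all features (19.8%) were called in Flk1+ cells. The median difference of the 184 rises was 0.72 in Flk1- and 0.47 in Flk1+ cells, and that of the 102 falls -0.70 and -0.38. Since the features were chosen by their size in Flk1- cells, the smaller size in Flk1+ cells is not a comparison between the sorts. Without the Flk1+ arrays 2 and 4 of 84 h the share with the same sign was again 93.4%, against 65.3% of all features, and without arrays 1 and 3 it was 88.1%, against 60.0%. Deviations from the group means of same-numbered arrays of both sorts correlated at 0.141, 0.408, 0.417 and 0.107 for numbers 1 to 4 at 95 h and at 0.340, -0.127, 0.313 and 0.526 at 84 h. The part of these correlations in the shared signs was not tested.

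Examples with a like change in Flk1+ cells were Abca5 (1.26, adjusted p = 0.00457), Ednrb (1.48, adjusted p = 0.0011), Gdf10 (1.14, adjusted p = 0.00116), Lhx1 (-1.57, adjusted p = 0.00131) and Acta2 (0.60, adjusted p = 0.00223). Named genes of opposite sign included Prdm6 at -0.69 (adjusted p = 0.0785), Snai1 at -0.20 (adjusted p = 0.48) and Cldn6 at -0.26 (adjusted p = 0.239) in Flk1+ cells. Dusp9, a MAP kinase phosphatase chosen after its values were seen, rose by 0.73 in Flk1- cells (SE 0.17, adjusted p = 0.0314) and fell by 0.51 in Flk1+ cells (adjusted p = 0.0387). The difference between these 2 changes of Dusp9 was 1.24 (SE 0.24, adjusted p = 0.129), and that of Prdm6 was 1.82 (adjusted p = 0.159).

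The test of the difference between the time changes called 1 of 17440 features (0.00573%), with 2686 at an unadjusted p under 0.05. It was a probe without a gene name, which was 0.38 lower at 95 h in Flk1- cells and 0.67 higher in Flk1+ cells, a difference of -1.05 (SE 0.15, adjusted p = 0.00792). With the replicate number within each time as a block, 5 features were called. Without Flk1+ arrays 2 and 4 and Flk1- array 4 of 84 h, 31 were called, and with array weights 46. With Flk1+ arrays 1 and 3 left out in place of 2 and 4, a setting chosen after the pairs of arrays were seen, 5188 were called, 1 of them the unnamed probe. The count of differences between the sorts thus depended on which Flk1+ arrays of 84 h were used. A time change called in one sort and not in the other is therefore not shown to differ between the sorts.

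**Figure D4:**
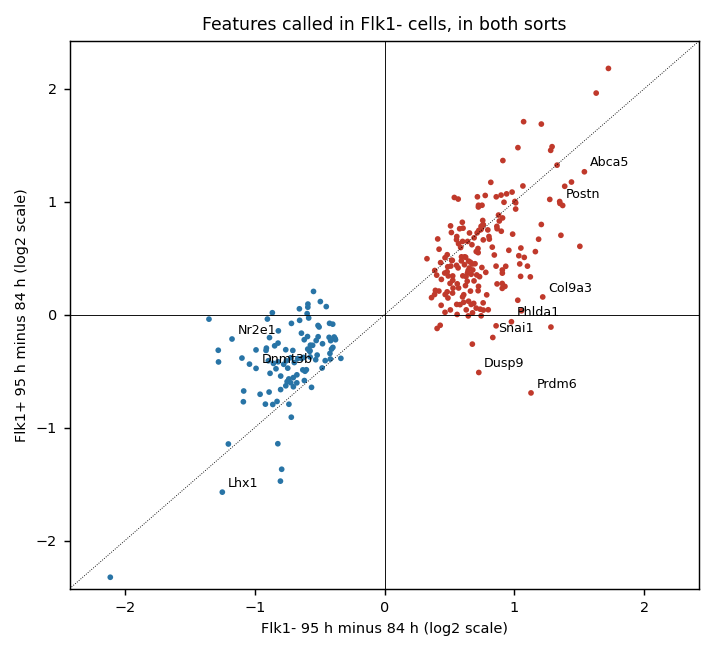
Difference between 95 h and 84 h in Flk1- cells (x axis, log2 scale) against the same difference in Flk1+ cells (y axis, log2 scale) for the 286 features called in Flk1- cells, red for rises and blue for falls. Most points lie in the 2 quadrants of equal sign (267 of 286), and Prdm6 and Dusp9 lie in the lower right quadrant.

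Levels at 8 d place the 95 h values within the longer course of Flk1- cells and are given without a test. Of the 12 largest rises, 6 had an 8 d mean above that of 95 h, namely Postn, Peg3, Gata3, Nid1, Ednrb and Phlda1. For Gata3 the gap was smaller than the SD, with -1.01 ± 0.32 at 95 h and -0.91 ± 0.16 at 8 d. Acta2 went from -3.06 ± 0.11 (SD, n = 4) and -2.23 ± 0.10 to 1.35 ± 0.17 at 8 d, and Postn from -6.26 ± 0.18 and -4.91 ± 0.35 to 0.64 ± 0.22. In the other 6, Abca5, Col9a3, Lrp1, Hspb1, Gdf10 and Wfdc18, the 8 d mean lay between those of 84 h and 95 h. Abca5 was at -1.93 ± 0.29, -0.39 ± 0.18 and -1.73 ± 0.10, so that its 8 d mean was near that of 84 h.

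Among the 12 largest falls, Lhx1, D1Pas1, Dnmt3b and Tmem191c had a lower mean still at 8 d. For Tmem191c the gap was smaller than the SD at 95 h, with -0.11 ± 0.49 at 95 h and -0.34 ± 0.19 at 8 d. Dnmt3b had means of 4.07 ± 0.06, 3.08 ± 0.18 and 1.48 ± 0.28, and Lhx1 of 3.04 ± 0.41, 1.79 ± 0.61 and -0.25 ± 0.23. Msc, Mcl1, Map2 and Pdk1 had an 8 d mean between the times, and Nr2e1, Abca1, Panx3 and Samsn1 one above that of 84 h. For Abca1, Panx3 and Samsn1 the gap between 84 h and 8 d was smaller than the SD at 84 h. Panx3 was at -0.40 ± 0.12 at 84 h and -0.38 ± 0.13 at 8 d, and Samsn1 at -0.29 ± 0.08 and -0.26 ± 0.09. Abca1, for example, had means of -0.82 ± 0.16, -1.91 ± 0.24 and -0.72 ± 0.09, a low point at 95 h.

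**Figure D5:**
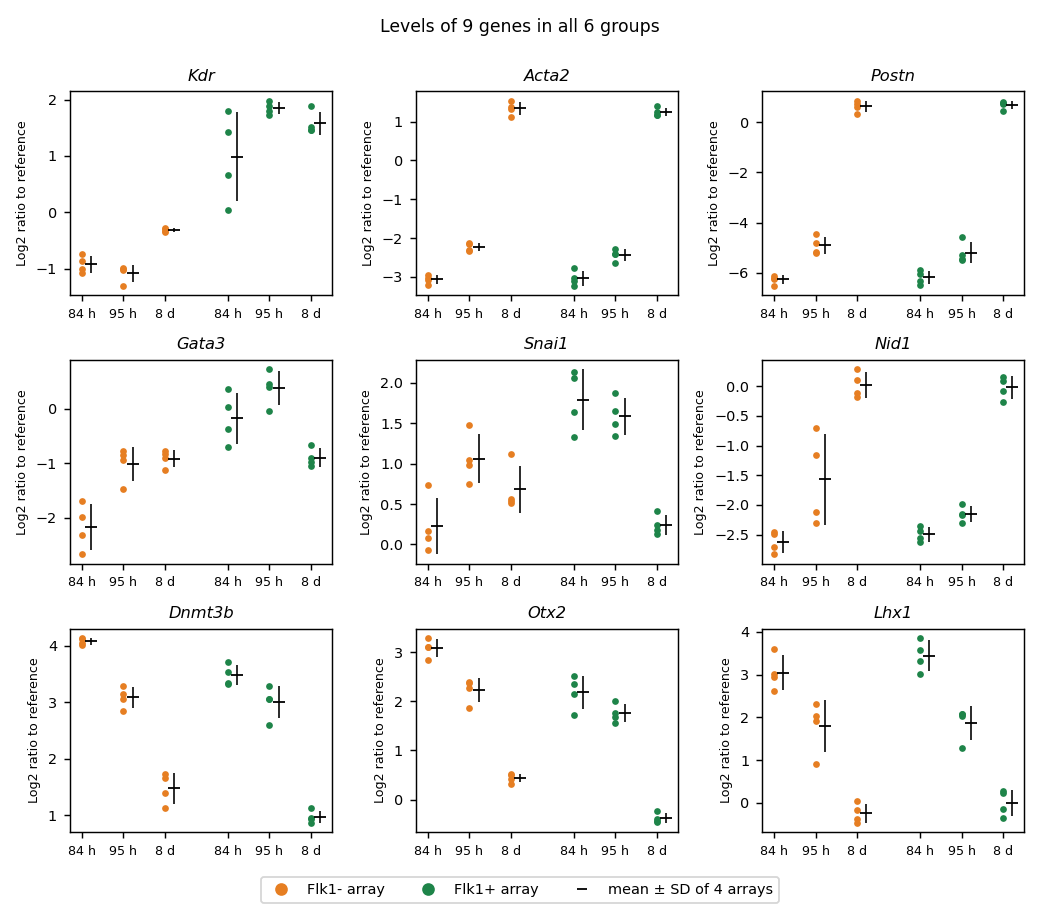
Log2 ratio to the whole-pup reference (y axis) of 9 genes in Flk1- (orange) and Flk1+ (green) cells at 84 h, 95 h and 8 d (x axis), with each array as a point and the mean ± SD of 4 arrays beside it. Dnmt3b, Otx2 and Lhx1 decline over the 3 times in both sorts, Acta2 and Postn climb, and Kdr separates the sorts at every time.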

How the data were processed

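Per the labels, sample RNA (Qiagen RNeasy, Cy5) and a common reference from homogenised pups (Cy3) were amplified and hybridised, with no dye exchanged, so that a dye effect drops out of differences. The deposited values were assumed to be log2, since the authors' log base, background correction and normalization are not given in the sources used here. The fold values above rest on this assumption. The deposited table had 20280 probes with an array mean of 0, of which 11813 had 1 gene, 559 several and 7908 none listed. Probes of 1 gene were averaged (2180 genes), which left 8973 named genes and 8467 unnamed probes. For 5 of 29 called genes with several probes the probes differed in sign.

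All 24 arrays entered 1 limma fit (version 3.58.1, R 4.3.3) of 6 group means, with array medians set to 0, and Benjamini-Hochberg adjustment over the 17440 features. The procedure was tested on simulated data with independent normal values and 1 spread per feature for all groups. Unequal or grouped arrays, such as 95 h array 2, were not part of that simulation. The 18 settings per gene were 8 omissions of 1 Flk1- array, 2 omissions of 3 arrays, the 8 arrays alone, values as deposited, quantile normalization, array weights, 1 probe per gene (largest SD), the replicate block, robust eBayes and named features alone. Motifs were searched and plots drawn in Python 3.11.15 (matplotlib 3.10.9).

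The comparison, the 34 lists and the alternatives were chosen with earlier results of these data known. Genes were named by a rule: Kdr, the 12 largest called rises and falls without overlap, up to 3 called members of each list and up to 4 called differences of time changes each way, 53 genes in all. Uncalled list members and genes stated as chosen after their values were seen were added. Replicate numbers did not pair the 84 h and 95 h arrays, whose deviations correlated at -0.164, 0.071, 0.007 and -0.009.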

Additional observations from a re-analysis of the deposited data

Results flagged for a closer look

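For each named gene and each time, the array farthest from the others was compared with Dixon's 95% critical value for 4 samples, which chance passes in about 1 of 20 groups. Of 204 groups 7 passed. At 95 h these were array 1 for Kdr, at -1.30 against -1.02 to -1.00 on the others, and array 2 for Samsn1, at -1.57 against -1.08 to -1.01. At 84 h they were array 4 for Gdf10, at -1.49 against -0.69 to -0.59, array 4 for Notch1, the Notch receptor, at -0.056 against -0.86 to -0.79, and array 2 for Gsn, at -3.12 against -3.26 to -3.24. Array 1 of 84 h stood apart for Plagl1, at -3.92 against -3.41 to -3.35, and for Krt19, at -0.14 against -0.80 to -0.77. The single feature whose time change differed between the sorts, the unnamed probe, had a difference of -1.05.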

How the results depend on the processing

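The 286 called features became 70 from only the 8 arrays compared, 668 without Flk1+ arrays 2 and 4 and Flk1- array 4 of 84 h, 2156 with array weights, 51 at an adjusted p under 0.01, and, chosen after seeing the data, 55 without Flk1- array 4 of 84 h and arrays 1 and 2 of 95 h. Leaving out 1 Flk1- array gave 93 to 449. The replicate block gave 314. As deposited, without centring, 151 were higher and 110 lower.

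The 1 called difference of time changes became 0 from only the 84 h and 95 h arrays, with quantile normalization and with named features alone, 31 without the Flk1+ arrays 2 and 4 and Flk1- array 4 of 84 h, 5188 with Flk1+ arrays 1 and 3 left out in place of 2 and 4 (chosen after seeing the data), 46 with array weights, 4 without the 3 Flk1- arrays, 5 with the replicate block within time and 1 to 3 without single Flk1- arrays.

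Without single Flk1- arrays, the uncalled Cdh1 ran from -0.63 to 0.015, Epcam from -0.025 to 0.44 and Notch1 from -0.27 to 0.035. Uncalled genes that changed sign were Tdgf1 (0.012, quantile), Cdh1 (0.015, without 84 h array 2), Notch1 (0.035 without 84 h array 4, alone or with the Flk1+ arrays, and 0.071 without the 3 Flk1- arrays), Col4a1 (-0.032, without those 3) and Epcam (-0.025 without 84 h array 4, alone or with the Flk1+ arrays, -0.073 with array weights, -0.22 without the 3). No called gene of the rule did so under the settings run. Over named genes and settings, 1370 values kept their side of the threshold, 426 lost the call and 30 gained one, and of list medians 588 moved by less than the spread between arrays and 24 by more. The cause of these changes was not tested. Signal over background is not given in the deposited values, so that faint probes such as Postn cannot be told from background.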

Other observations

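Further called genes, chosen after their values were seen, belonged to none of the lists. Among rises were Pygm, muscle glycogen phosphorylase, by 0.86 (SE 0.18, limma adjusted p = 0.0187), Fabp4, a fatty acid binding protein, by 0.76 (SE 0.16, adjusted p = 0.0191), and Tapbp, the tapasin of peptide loading onto class I molecules, by 0.67 (SE 0.12, adjusted p = 0.00853). The protocadherin gene Dchs1 rose by 0.74 (SE 0.15, adjusted p = 0.0134), the integrin-linked adhesion gene Parva by 0.64 (SE 0.14, adjusted p = 0.0253) and Flrt3, a transmembrane protein of the early embryo, by 0.94 (SE 0.23, adjusted p = 0.0427). Flrt3 was 1.07 higher in Flk1+ cells, while Dchs1 was at 0.05 there.

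Falls outside the lists included Abcc4, an efflux transporter, by 0.82 (SE 0.14, adjusted p = 0.00574), Antxr1, an adhesion receptor that also binds anthrax toxin, by 0.74 (SE 0.15, adjusted p = 0.0129), and Msh6, a mismatch repair protein, by 0.42 (SE 0.10, adjusted p = 0.0259). Tpd52, a vesicle protein, fell by 0.66 (SE 0.15, adjusted p = 0.0269). Ptprd, a receptor phosphatase, rose by 0.86 (SE 0.13, adjusted p = 0.0028) and was called in 17 of 18 settings, with probes at 0.41 and 1.32. Of the 18 settings, Tapbp and Abcc4 stayed called in 16, Antxr1 in 15, Dchs1 in 14, Pygm and Fabp4 in 13, Parva, Msh6 and Tpd52 in 11 and Flrt3 in 10.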
